A study of Mus musculus with 16 samples.

Results

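The deadenylase complex genes are Cnot1, Cnot2, Cnot3, Cnot6, Cnot6l, Cnot7, Cnot8, Pan2, Pan3 and Parn, and all array probes carrying 1 of these 10 gene names were taken, which gave 15 of the 55681 probes on the array, for 10 of its 34836 gene names. Expression was measured on 1-colour arrays in RAW 264.7 cells, a macrophage-like line derived from a mouse tumour, so all samples are of 1 line and describe no primary macrophage. The cells of all 4 conditions had been kept in 0.5% serum and received the same volume of DMSO, the vehicle. The DMSO cells stayed in DMSO for 120 min, and the cordycepin cells stayed in 20 µM cordycepin, an adenosine analogue that inhibits polyadenylation, for the same 120 min. LPS+DMSO and LPS+cordycepin cells were given 60 min of DMSO or cordycepin and then 1 µg/ml LPS, the endotoxin that activates macrophages, for a further 60 min with the first agent still present. Each condition had 4 biological replicates, 16 arrays in all, and each replicate number was a culture day of its own.

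Deadenylases shorten the poly(A) tails of mRNAs, the step that usually precedes decapping and degradation. The PAN2-PAN3 complex is regarded as acting on long tails, and the CCR4-NOT complex does most of the shortening in the cytoplasm through a pair of nucleases, a CCR4-type subunit (Cnot6 or Cnot6l) and a CAF1-type subunit (Cnot7 or Cnot8), held on the scaffold protein Cnot1. Parn is a separate enzyme known for trimming the ends of small non-coding RNAs. In macrophages, many mRNAs of cytokines are kept short-lived by proteins such as tristetraprolin (Zfp36), which brings CCR4-NOT to AU-rich elements.

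Because each nuclease position of CCR4-NOT can be filled by either of 2 related genes, probes of these genes are shown first. Each probe is 60 bases long, and 30 of them are given 5′ to 3′ as in the array files, with positions of the whole probe on mm9. The first 30 bases are shown for 5 probes.
Cnot6 A_55_P2064595, chr11:49487395-49487454, minus strand: agtaattttctgtttatgaagcagtataaa
Cnot6 A_55_P2064598, chr11:49488274-49488333, minus strand: ccgttcttccagactttactccctcttttt
Cnot6l A_51_P208031, chr5:96505133-96505192, minus strand: cagtttcagaaagggcaagccagataatat
Cnot6l A_55_P2121945, chr5:96505874-96505933, minus strand: cattcacgattgataaatcactaatttgag
Cnot7 A_52_P410732, chr8:41578761-41578820, minus strand: gtgcattgtgcaaattgttcaacaggaata

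The probes of paralogues share little sequence with each other, and their match to the transcripts of the other paralogue was not tested. Over the full 60 bases, the longest identical run between a Cnot6 and a Cnot6l probe was 5 to 8 bases in the 6 pairs, and that between the Cnot7 and Cnot8 probes was 7 bases. The longest run shared by any of the 105 pairs among the 15 probes was 12 bases, between a Cnot6 and the Cnot8 probe. That run is in capitals in the following 30 bases of each, bases 19 to 48 of the Cnot6 probe and 24 to 53 of the Cnot8 probe.
Cnot6 A_51_P449911, chr11:49485150-49485209, minus strand: gggtgatgaGAAACTGAATTTacaccatat
Cnot8 A_55_P1964359, chr11:57931953-57932012, plus strand: agcttgtggGAAACTGAATTTgaaatgaca
GC content of the 15 probes lay between 26.7% and 53.3%. All 3 Cnot6 probes and 1 probe each of Cnot2 and Cnot6l, 5 of the 15, held a stop triplet in all 3 reading frames as written, so that none of these can be read through as coding sequence in the orientation of the files.

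Between 37.1% and 51.2% of the spots of an array were well above background, and no spot was saturated. All 10 macrophage marker genes were well above background on all 16 arrays. Of the marker genes of other cells given here, Col1a1 and Epcam were above background on 1 array each, Pecam1 on 8 and Cd3e on all 16. Mean log2 signal of Cd3e was between 8.63 and 8.95 in the 4 conditions, with 1 LPS+cordycepin array at 10.19, and its part in the values below was not tested. Tnf, the check that LPS had acted, had a mean log2 signal of 17.79 in LPS+DMSO and 16.72 in LPS+cordycepin, beside 11.08 in DMSO and 11.56 in cordycepin. The lowest LPS+DMSO array was at 17.59 and the highest DMSO array at 11.29.

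Of the 15 probes, 14 were well above background on all 16 arrays and were tested, and they cover all 10 genes. The remaining probe, Cnot2 A_65_P11816 (chr10:115947414-115947473), was above background on 1 array, cordycepin replicate 1, where its log2 signal was 6.41. On the other 3 cordycepin arrays it was between 3.25 and 3.81, on the DMSO arrays between 3.29 and 3.82, on the LPS+DMSO arrays between 3.29 and 4.53, and on the LPS+cordycepin arrays between 2.44 and 4.00. This probe was therefore not tested.

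**Figure D1:**
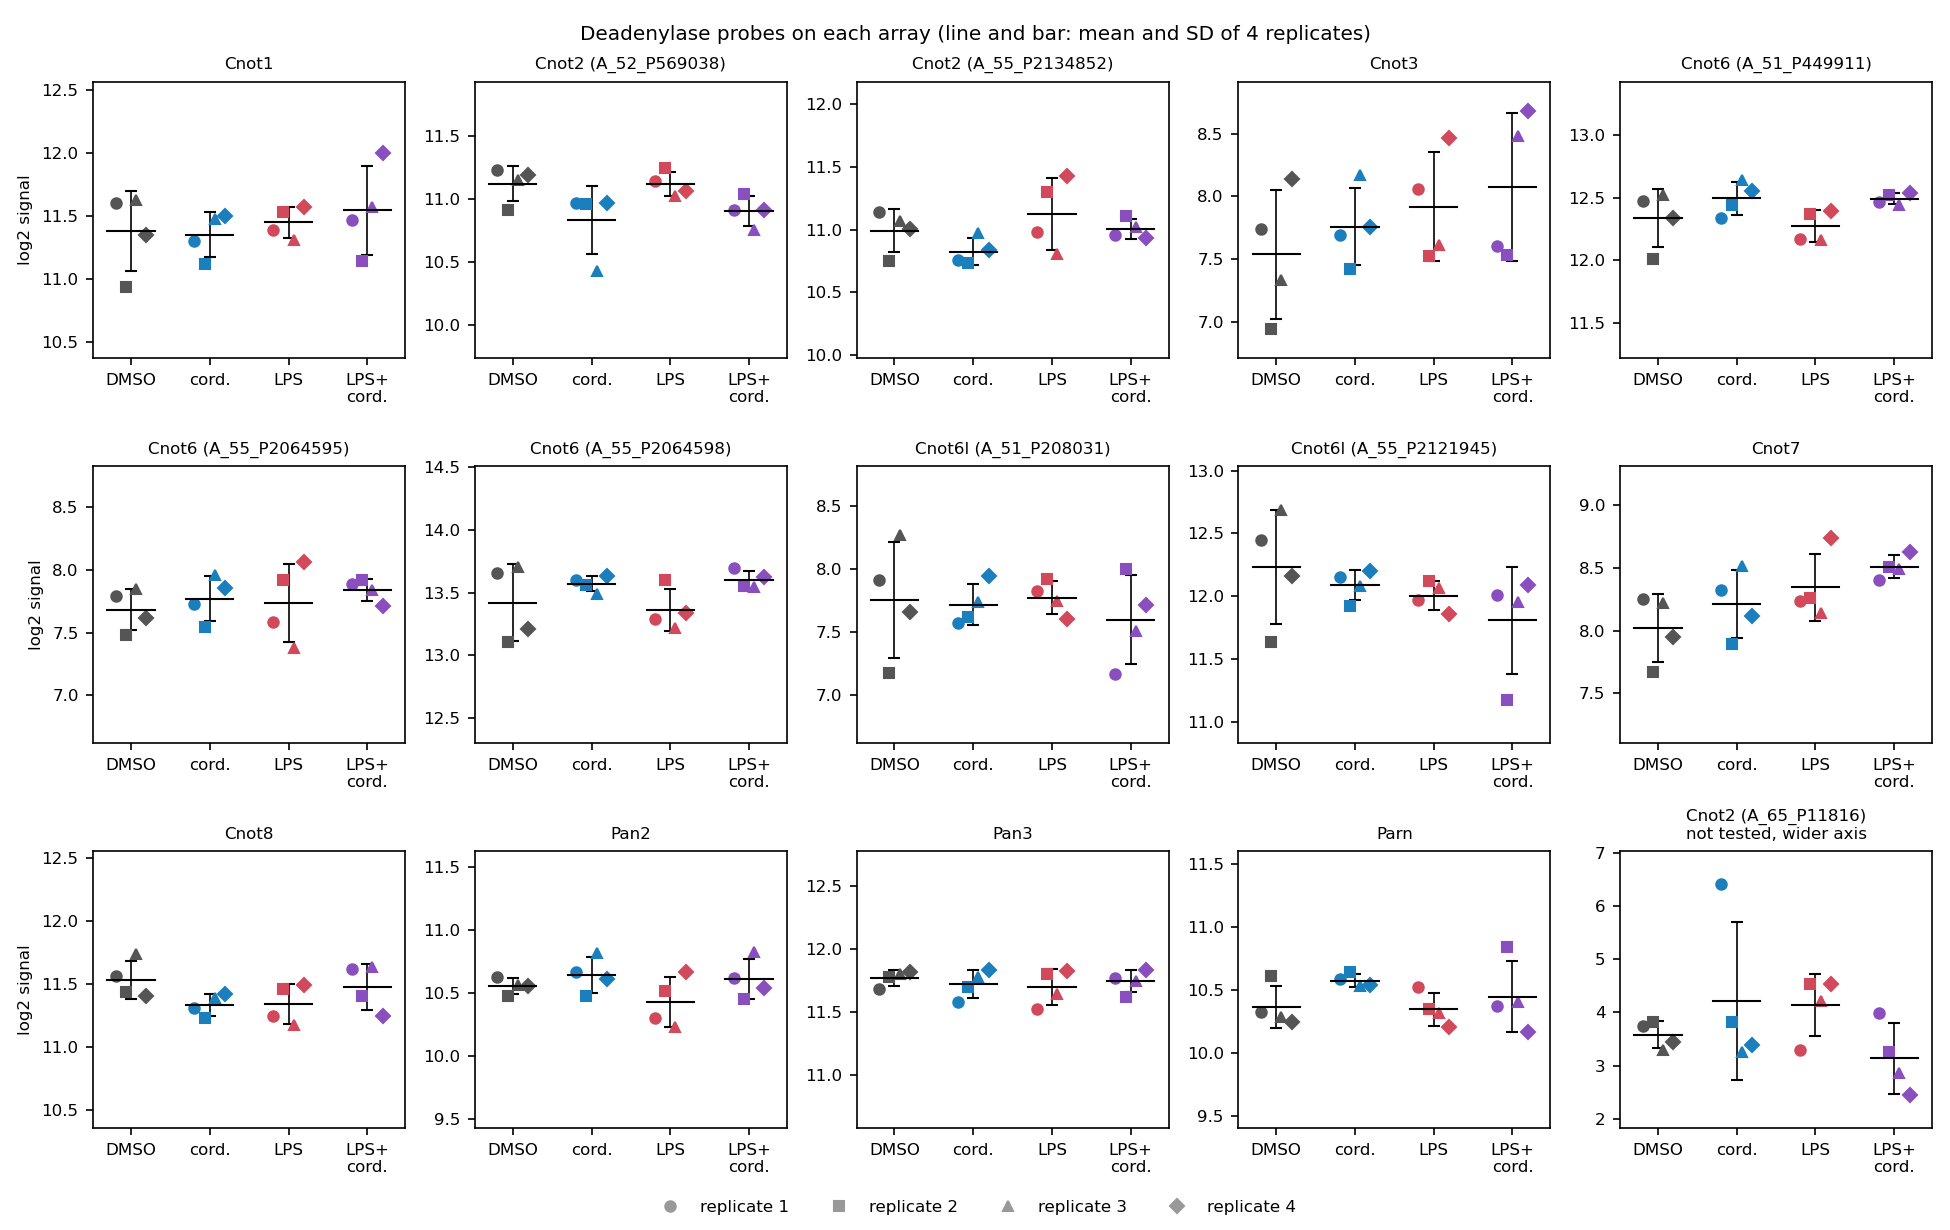
Log2 signal (vertical axis, each panel spanning the same range except the last) of the 15 deadenylase probes on each of the 16 arrays. Symbols are replicates, horizontal lines the mean and vertical bars the SD of 4 replicates, with cord. for cordycepin and LPS for LPS+DMSO. Among the 4 comparisons made, the groups are apart for Cnot6 A_51_P449911, where LPS+cordycepin lies above LPS+DMSO, and overlap for the other tested probes. In that comparison the groups are apart for 23.4% of all probes tested.

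The first question was whether LPS changed the expression of the deadenylases. None of the 14 probes passed the test in LPS+DMSO against DMSO (limma over all probes tested, adjusted p under 0.05), whereas 14.5% of all 21591 probes tested did. None reached an unadjusted p under 0.05 either, beside 5566 of all 21591 probes. The changes of the 14 probes ran from -0.23 (Cnot6l) to 0.38 (Cnot3) on the log2 scale, with a median of -0.01, beside a median of -0.04 over all probes tested. All 14 pairs of groups overlapped, whereas 18.6% of all probes did not overlap. As a value is relative to the other probes of its array, fewer transcripts of a gene and more RNA of other genes cannot be told apart, and neither can fewer cells and less RNA per cell.

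The second question was whether cordycepin alone changed them. None of the 14 probes passed in cordycepin against DMSO, beside 16.8% of all probes tested. An unadjusted p under 0.05 was found for 1, a Cnot2 probe, beside 6129 of all 21591 probes. Changes ran from -0.29 (Cnot2) to 0.22 (Cnot3), with a median of 0.03 beside 0.04 over all probes. All 14 pairs of groups overlapped, beside 22.2% of all probes that did not.

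The third question, that of the drug during stimulation, is answered by LPS+cordycepin against LPS+DMSO. Again none of the 14 probes passed, beside 20.2% of all probes. None had an unadjusted p under 0.05, beside 6225 of all 21591 probes. Changes ran from -0.21 (Cnot2) to 0.24 (Cnot6), with a median of 0.10 beside 0.03 over all probes. In 1 of the 14, a Cnot6 probe, the groups did not overlap, beside 23.4% of all probes. LPS+cordycepin against cordycepin gave none of 14, beside 7.88% of all probes, and none with an unadjusted p under 0.05, beside 3879 of all 21591 probes. Its changes ran from -0.28 (Cnot6l) to 0.32 (Cnot3), with a median of 0.05 beside -0.05, and all 14 pairs of groups overlapped, beside 15.1% of all probes that did not. The interaction, which is the LPS change in cordycepin less that in DMSO, gave none of 14, beside 0.519% of all probes. No member had an unadjusted p under 0.05 in it, beside 1611 of all 21591 probes. These comparisons share condition means and are not independent of each other. A sign shared by all 4 replicates was found for 1 of the 14 probes for LPS, beside 33.6% of all probes. For cordycepin it was found for 3, beside 38.6%, and in LPS+cordycepin against LPS+DMSO for 2, beside 38.2%. LPS+cordycepin against cordycepin gave 3, beside 34.9%, and the interaction gave 0, beside 19.6%.

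A p that misses the threshold does not show that a gene stayed at its level, so the 95% confidence interval of each change was set against fixed sizes of change. In LPS+DMSO against DMSO the interval lay within a 2-fold change in either direction for 13 of 14 probes, and in the other 4 comparisons for all 14. Over all probes tested this share was between 78.6% and 86.5%. Within 1.5-fold, which is a narrower limit, lay the intervals of 11 probes in the LPS comparison, 12 in the cordycepin comparison, 11 in each of the comparisons with LPS+cordycepin and 9 in the interaction, beside 56.6%, 55.2%, 55.2%, 62.1% and 43.6% of all probes. The widest interval belonged to Cnot3 in all 5 comparisons and reached from -0.28 to 1.03 for LPS, so that in this comparison a 2-fold rise was inside the interval of this gene and of no other member. A 1.5-fold change was thus inside the intervals of 2 to 5 of the 14 probes, depending on the comparison, and outside those of the rest.

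**Figure D2:**
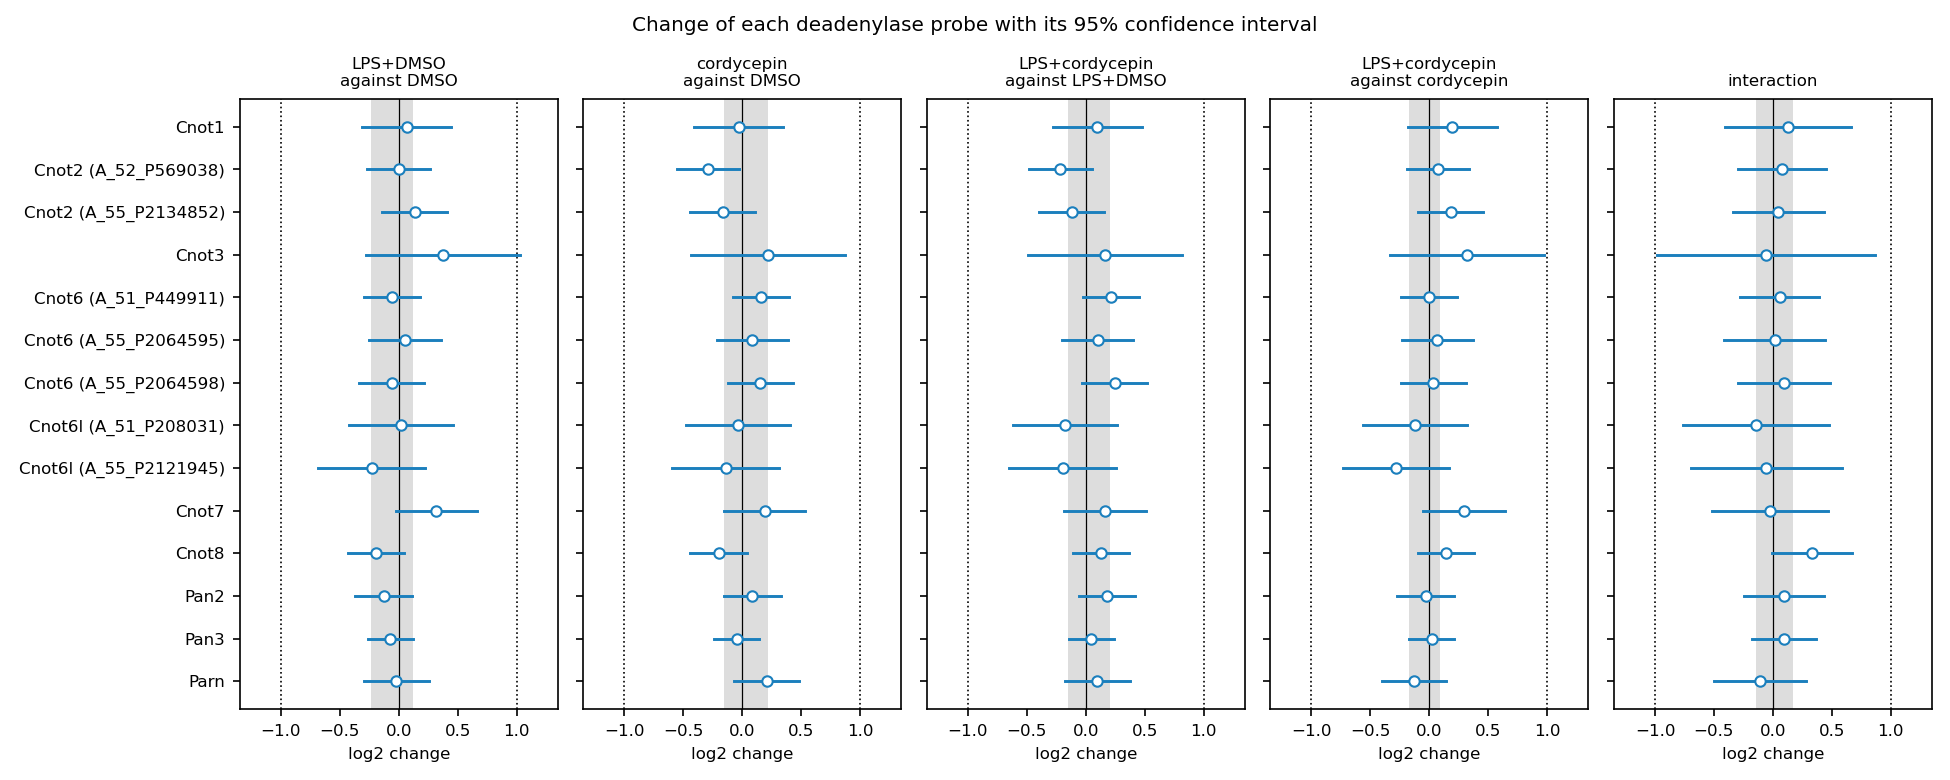
Log2 change (horizontal axis) of the 14 tested deadenylase probes in the 4 comparisons and the interaction. Circles are the fitted changes, open because none passed an adjusted p of 0.05, lines are 95% confidence intervals, the grey band holds the middle 50% of all probes tested, and dotted lines mark a 2-fold change. Only the Cnot3 interval crosses a dotted line, in the LPS comparison.

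Cnot1 is the scaffold that binds the other subunits of CCR4-NOT, and its probe showed no change beyond the spread of the arrays. Its log2 signal was 11.60, 10.94, 11.63 and 11.35 in the DMSO replicates and 11.31, 11.12, 11.48 and 11.51 in the cordycepin replicates. In LPS+DMSO the values were 11.39, 11.53, 11.31 and 11.57, and in LPS+cordycepin 11.47, 11.15, 11.58 and 12.004. The 4 conditions overlapped, the lowest array was DMSO replicate 2 and the highest LPS+cordycepin replicate 4. The largest of its changes was 0.20 (SE 0.18), in LPS+cordycepin against cordycepin (adjusted p = 0.674), higher in 4 of 4 replicates.

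Cnot2 and Cnot3 form a module that contacts regulatory proteins, and they gave the smallest unadjusted p and the largest change of all members. The Cnot2 probe A_52_P569038 was at 11.23, 10.92, 11.15 and 11.19 in DMSO and at 10.97, 10.96, 10.43 and 10.97 in cordycepin. Cordycepin replicate 3 lay far below its group, and the other 3 were below 3 of the 4 DMSO arrays. The difference was -0.29 (SE 0.12, 95% interval -0.56 to -0.03) with an unadjusted limma p of 0.0327 and an adjusted p of 0.132. It was negative in 3 of 4 replicates. Without cordycepin replicate 3 it was -0.16 (adjusted p = 0.377), and without DMSO replicate 2 it was -0.36 (adjusted p = 0.0699). Within the slides it was -0.11 for replicates 1 and 2 and -0.47 for replicates 3 and 4.

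In LPS+cordycepin against LPS+DMSO the same Cnot2 probe differed by -0.21 (SE 0.12, adjusted p = 0.290), negative in 4 of 4 replicates and -0.21 within both slides. The LPS+DMSO replicates were at 11.15, 11.25, 11.03 and 11.07 and the LPS+cordycepin replicates at 10.92, 11.04, 10.75 and 10.91, so that only LPS+cordycepin replicate 2 reached into the LPS+DMSO values. The other tested Cnot2 probe, A_55_P2134852 differed by -0.17 (SE 0.13, adjusted p = 0.449) in cordycepin against DMSO and by -0.12 (SE 0.13, adjusted p = 0.623) in LPS+cordycepin against LPS+DMSO. Over the 16 arrays the 2 probes had a Pearson correlation of 0.35, and they share arrays and a gene.

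Cnot3 had the widest spread of the 14 probes. Its log2 signal was 7.74, 6.95, 7.34 and 8.14 in DMSO, 7.69, 7.42, 8.17 and 7.76 in cordycepin, 8.06, 7.53, 7.62 and 8.46 in LPS+DMSO, and 7.61, 7.54, 8.48 and 8.68 in LPS+cordycepin. From lowest to highest the means were those of DMSO (7.54 ± 0.51), cordycepin (7.76 ± 0.31), LPS+DMSO (7.92 ± 0.43) and LPS+cordycepin (8.08 ± 0.59, SD, n = 4 each), and neighbours in this order overlapped. The LPS change was 0.38 (SE 0.31, adjusted p = 0.522), positive in 4 of 4 replicates, 0.45 within slide 1 and 0.30 within slide 2. The change with cordycepin under LPS turned direction between slides, at -0.22 for replicates 1 and 2 and 0.54 for replicates 3 and 4. Arrays of slide 2 were on average 0.51 above those of slide 1 (8.08 against 7.57), beside a range of 0.54 between its 4 condition means.

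Cnot6, a CCR4-type nuclease, was the 1 member with groups that did not overlap in a comparison made here, although it did not pass the test. In that comparison, LPS+cordycepin against LPS+DMSO, the groups of 23.4% of all probes did not overlap. The probe A_51_P449911 was at 12.17, 12.37, 12.17 and 12.39 in LPS+DMSO and at 12.47, 12.52, 12.44 and 12.54 in LPS+cordycepin, so that the lowest LPS+cordycepin array was above the highest LPS+DMSO array. In DMSO it was at 12.47, 12.01, 12.52 and 12.34 and in cordycepin at 12.34, 12.44, 12.64 and 12.55, which overlapped. The difference under LPS was 0.22 (SE 0.11, 95% interval -0.02 to 0.46, adjusted p = 0.221), positive in 4 of 4 replicates, 0.23 within slide 1 and 0.21 within slide 2. In this comparison 38.2% of all probes had the same sign in all 4 replicates.

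The other 2 Cnot6 probes share the gene and the arrays, so they are not an independent check of this difference. A_55_P2064598 was at 13.29, 13.60, 13.21 and 13.34 in LPS+DMSO and at 13.69, 13.55, 13.54 and 13.62 in LPS+cordycepin, which overlapped through LPS+DMSO replicate 2. Its difference was 0.24 (SE 0.13, adjusted p = 0.239), positive in 3 of 4 replicates. A_55_P2064595 differed by 0.10 (SE 0.14, adjusted p = 0.725), positive in 2 of 4, and by -0.08 with quantile normalization and -0.09 in the authors' values. Over the 16 arrays the 3 probes had pairwise correlations of 0.56, 0.70 and 0.78, the last being the highest of all 91 pairs of tested probes.

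Cnot6l, the paralogue of Cnot6, was measured by 2 probes, with SDs of 0.46 (A_51_P208031) and 0.45 (A_55_P2121945) in DMSO. A_55_P2121945 was at 12.45, 11.64, 12.69 and 12.16 in DMSO and at 11.97, 12.12, 12.06 and 11.86 in LPS+DMSO. Replicate 2 was lower in DMSO than in LPS+DMSO, and the other 3 replicates were higher. The LPS change was -0.23 (SE 0.21, adjusted p = 0.590) over all arrays, 0.00 within slide 1 and -0.46 within slide 2. Leaving out all arrays of replicate 2 gave -0.47 (SE 0.13, adjusted p = 0.0336), the only call of a member by limma in any alternative tried, whereas leaving out only DMSO replicate 2 gave -0.43 (adjusted p = 0.170). Without all arrays of replicate 2, 2778 of all 21591 probes passed for LPS.

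In cordycepin the same Cnot6l probe was at 12.16, 11.93, 12.09 and 12.20, and in LPS+cordycepin at 12.01, 11.18, 11.95 and 12.09, where replicate 2 stood far below the other 3. The other probe, A_51_P208031, ranged from 7.16 in LPS+cordycepin replicate 1 to 8.27 in DMSO replicate 3, and its largest change was -0.18 (SE 0.21, adjusted p = 0.658), in LPS+cordycepin against LPS+DMSO. LPS+cordycepin replicate 2 was the highest of its group for this probe, and the lowest for A_55_P2121945. The 2 Cnot6l probes had a correlation of 0.35 over the 16 arrays.

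Cnot7 and Cnot8 are the CAF1-type nucleases, which are alternative partners in the complex. Cnot7 had the smallest adjusted p of the members for LPS, 0.238. Its log2 signal was 8.25, 7.67, 8.22 and 7.95 in DMSO, 8.32, 7.89, 8.52 and 8.12 in cordycepin, 8.23, 8.26, 8.14 and 8.74 in LPS+DMSO, and 8.40, 8.51, 8.49 and 8.63 in LPS+cordycepin. Its lowest mean was that of DMSO, 8.02 ± 0.27, followed by cordycepin at 8.21 ± 0.27, LPS+DMSO at 8.34 ± 0.27 and LPS+cordycepin at 8.51 ± 0.09 (SD, n = 4 each), and adjacent conditions overlapped. The LPS change was 0.32 (SE 0.16, 95% interval -0.03 to 0.67), positive in only 2 of 4 replicates, and in the presence of cordycepin it was 0.29 (SE 0.16, adjusted p = 0.391), positive in 3 of 4. Both were positive within each slide.

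Cnot8 was measured at 11.57, 11.44, 11.74 and 11.40 in DMSO and at 11.31, 11.23, 11.39 and 11.42 in cordycepin. In LPS+DMSO it was at 11.25, 11.46, 11.17 and 11.49, and in LPS+cordycepin at 11.62, 11.40, 11.63 and 11.25. Each agent alone gave a difference of the same size, -0.19 for LPS (SE 0.11, adjusted p = 0.323) and -0.20 for cordycepin (SE 0.11, adjusted p = 0.265), and all groups overlapped. The LPS change in cordycepin was 0.14 (SE 0.11, adjusted p = 0.614). The interaction was 0.33 (SE 0.16, 95% interval -0.01 to 0.67, adjusted p = 0.683), positive in 3 of 4 replicates, and was the largest and the smallest in p among the 14 probes. It fell short of the threshold also without adjustment, with a limma p of 0.0542.

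Pan3, the subunit that brings the PAN2-PAN3 complex to the poly(A) tail, had the narrowest spread of all members. All 16 arrays lay between 11.52 and 11.83 on the log2 scale, and the 4 condition means lay within 0.07. Each difference between 2 conditions had an SE of 0.09, and the interval for LPS was -0.26 to 0.12 and that for cordycepin -0.24 to 0.14. A change of 1.5-fold in either direction is outside these intervals.

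Pan2, the nuclease of that complex, was at 10.63, 10.48, 10.56 and 10.55 in DMSO, 10.66, 10.47, 10.82 and 10.61 in cordycepin, 10.30, 10.51, 10.23 and 10.67 in LPS+DMSO, and 10.62, 10.45, 10.82 and 10.54 in LPS+cordycepin. LPS+DMSO replicates 1 and 3 were the 2 lowest arrays. The largest difference was 0.18 (SE 0.11, adjusted p = 0.332), in LPS+cordycepin against LPS+DMSO, positive in 2 of 4 replicates.

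Parn was at 10.33, 10.61, 10.29 and 10.24 in DMSO and at 10.59, 10.64, 10.53 and 10.54 in cordycepin. All cordycepin arrays were above 3 of the 4 DMSO arrays, and DMSO replicate 2 lay among the cordycepin arrays. The difference was 0.21 (SE 0.13, 95% interval -0.07 to 0.48, adjusted p = 0.322), positive in 4 of 4 replicates, 0.14 within slide 1 and 0.27 within slide 2. Without DMSO replicate 2 it was 0.29 (adjusted p = 0.155). In LPS+DMSO Parn was at 10.52, 10.35, 10.31 and 10.21 and in LPS+cordycepin at 10.37, 10.84, 10.40 and 10.17, with a difference of 0.10 (SE 0.13, adjusted p = 0.704).

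Within conditions the median SD of the 14 probes was 0.180 on the log2 scale, beside 0.214 over all probes tested, and 5 of the 14 were above the latter. In DMSO replicate 2, 12 of the 14 probes were below the mean of their condition, by a median of -0.28, whereas the median over all probes on this array was 0.00. In DMSO replicates 1 and 3, 12 of 14 were above it, by medians of 0.14 and 0.17, and in LPS+DMSO replicate 3 only 1 of 14 was above it, with a median of -0.14. DMSO replicate 2 was the lowest of all 16 arrays for Cnot1, Cnot3, Cnot7 and 2 Cnot6 probes. Without it, none of the 14 probes passed in any comparison. In the order of the comparisons given above, 1, 2, 2, 0 and 1 had an unadjusted p under 0.05. The number of all probes at this threshold was not counted without this array. With all arrays in the fit it was 5566, 6129, 6225, 3879 and 1611 of 21591.

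**Figure D3:**
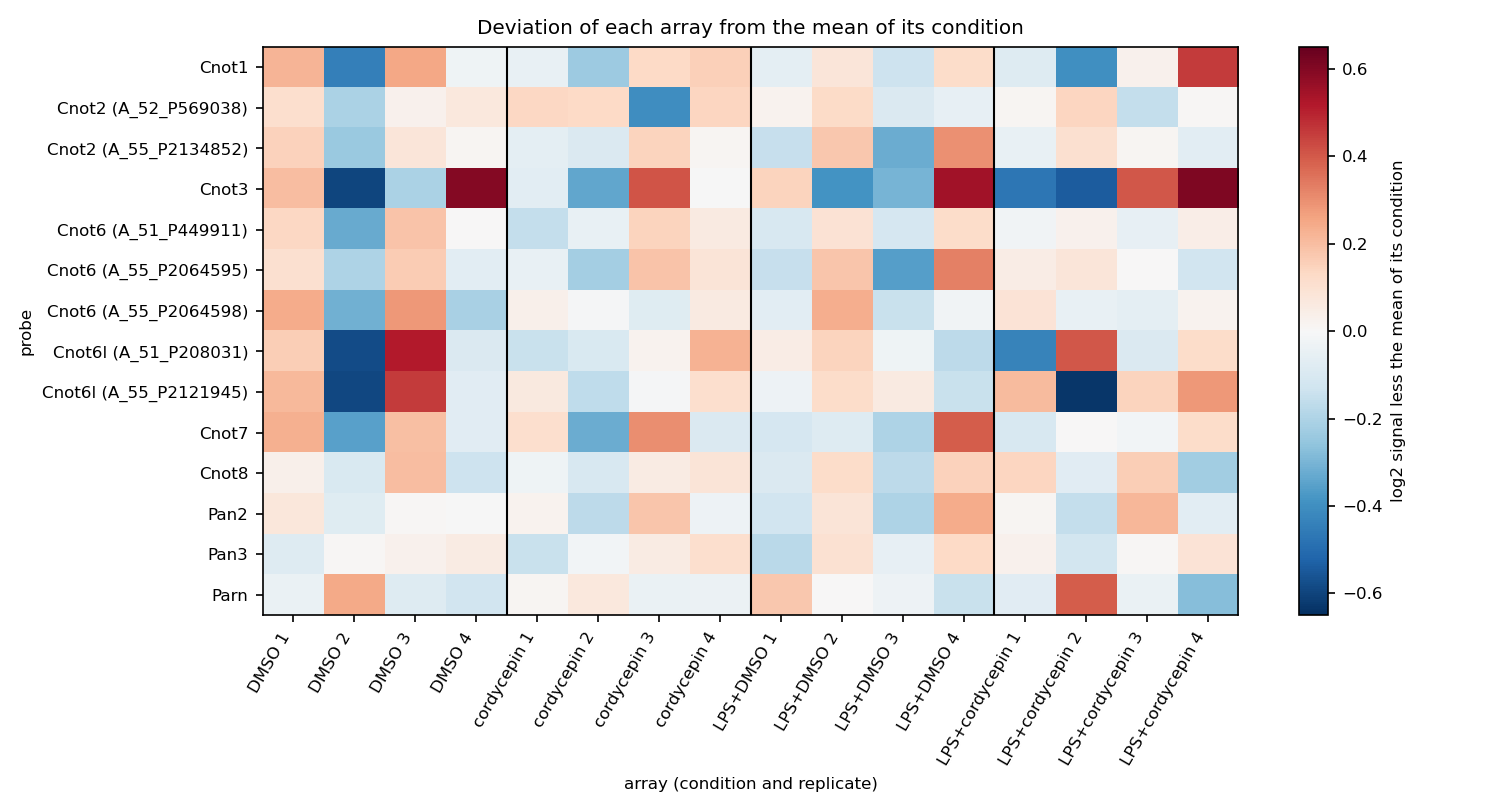
Log2 signal of each tested deadenylase probe (rows) on each array (columns, grouped by condition) less the mean of its condition, on a colour scale from blue (below) to red (above). DMSO replicate 2 is below its condition mean for 12 of 14 probes, and Cnot3 has the strongest colours.

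Across the 16 arrays the members moved together only in part. Over the 91 pairs of the 14 probes the median Pearson correlation was 0.27, and 67 were above 0, which describes arrays that share slides and culture days. The lowest, -0.73, was that of Cnot1 and Parn. Cnot3 had the largest range of condition means among the members, and the 5 probes of other genes most like it over the 16 arrays, of 13897 named probes above background on all arrays, were those of Med24 (r = 0.93), Pfn1 (0.93), Ppt2 (0.92), Ccnt1 (0.92) and Ppp1r11 (0.91). All these genes were highest on average in LPS+cordycepin, as was Cnot3. As they were picked by their correlation with Cnot3, this is not a separate result. For Med24 the means were 12.1396 in LPS+cordycepin and 12.1365 in LPS+DMSO.

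The other genes of deadenylation and of the next steps were described by 3 lists, and in each of them some probes passed where no member had. Of 15 tested probes for the other deadenylases and CCR4-NOT subunits, 1 rose and none fell in LPS+DMSO against DMSO, where 5.03% of all probes rose and 9.42% fell. In cordycepin against DMSO 1 rose and 3 fell, where 9.71% rose and 7.07% fell, and in LPS+cordycepin against LPS+DMSO none rose and 5 fell, where 12% rose and 8.2% fell. In LPS+cordycepin against cordycepin 1 rose and 1 fell, where 3.38% rose and 4.5% fell. None passed in the interaction. The median changes in the first 3 comparisons were 0.06, 0.04 and 0.09, beside -0.04, 0.04 and 0.03 over all probes.

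Nocturnin (Noct, named Ccrn4l in the array files), a relative of the CCR4-type nucleases now known to act on NADP(H), rose by 1.22 with LPS (SE 0.13, adjusted p = 9.57e-06) and fell by 1.00 in LPS+cordycepin against LPS+DMSO (SE 0.13, adjusted p = 3.32e-05). In LPS+cordycepin against cordycepin it rose by 0.68 (SE 0.13, adjusted p = 0.00347). A second Noct probe did not pass in any of these, with values of 0.06 for LPS, 0.11 in LPS+cordycepin against LPS+DMSO and 0.03 in LPS+cordycepin against cordycepin. With arrays scaled on the spiked-in controls none of the 3 Noct calls held (adjusted p = 0.139, 0.0737 and 0.692 in the same order). The values were then 1.11, -1.12 and 0.38, each with an SE of 0.39. The last call was also lost within each slide (adjusted p = 0.232 and 0.0529). Toe1, a nuclear deadenylase of small nuclear RNAs, fell by 0.83 with cordycepin alone (SE 0.14, adjusted p = 0.000425) and by 0.78 under LPS (SE 0.14, adjusted p = 0.000536). Both calls were lost with the spiked-in controls (-0.76 and -0.91, SE 0.39, adjusted p = 0.570 and 0.236) and within slide 1 (adjusted p = 0.0865 and 0.0886). Its second probe, A_52_P469458, fell by 0.73 with cordycepin alone (SE 0.22, adjusted p = 0.0315), which did not pass with the replicate number as a block (adjusted p = 0.0509) or without any one of 6 arrays, all 4 of DMSO and cordycepin replicates 2 and 3 (-0.84 to -0.55, adjusted p up to 0.109). In all, this call was lost in 15 of 34 alternatives. Among these were the spiked-in controls (adjusted p = 0.777), normexp background (0.0829) and slides 1 and 2 alone (0.207 and 0.249).

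For Cnot11, a CCR4-NOT subunit without nuclease activity, the 2 probes gave opposite signs with cordycepin, 0.48 (SE 0.13, adjusted p = 0.0159) and -0.29 (SE 0.10, adjusted p = 0.0589), and the rise was lost in 12 of 34 alternatives. Among these were quantile normalization (0.36, adjusted p = 0.0526), normexp background (0.31, adjusted p = 0.152), the authors' values (0.42, adjusted p = 0.0530), the spiked-in controls, each slide alone, and leaving out cordycepin replicate 3 or 4 (adjusted p up to 0.0607). Pnldc1, an exonuclease of the Parn family, fell by 1.81 in LPS+cordycepin against cordycepin (SE 0.52, adjusted p = 0.0454). This call was lost when any of 13 of the 16 arrays was left out, with changes between -2.20 and -1.09 and an adjusted p up to 0.121, and the value of the other Pnldc1 probe was -0.38 (adjusted p = 0.415). In all, the Pnldc1 call was lost in 21 of 33 alternatives.

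Genes that bring deadenylases to mRNAs held the largest changes. Of their 29 tested probes, 5 rose and 1 fell with LPS, 2 rose and 4 fell with cordycepin, 3 rose and 5 fell in LPS+cordycepin against LPS+DMSO, 4 rose and none fell in LPS+cordycepin against cordycepin, and none passed in the interaction. Over all probes the shares that rose and fell were 5.03% and 9.42%, 9.71% and 7.07%, 12% and 8.2%, and 3.38% and 4.5% in these comparisons. The counts of this list include the probe labelled Btg3, whose signal, as given below, cannot be assigned to that gene. It is among the rises with cordycepin and among those in LPS+cordycepin against LPS+DMSO. The medians of the first 3 comparisons were 0.14, -0.22 and -0.13, beside -0.04, 0.04 and 0.03 over all probes. Zfp36 was at a mean log2 signal of 5.63 in DMSO, above background on 2 of 4 arrays, and at 11.47 in LPS+DMSO. This was a rise of 5.85 (SE 0.31, adjusted p = 3.71e-09), and with cordycepin present the rise was 5.75 (SE 0.31, adjusted p = 8.07e-09) from a mean of 4.74 in cordycepin, where 1 of 4 arrays was above background. Because the unstimulated levels were mostly not above background, the sizes of these rises moved with the processing, from 4.22 to 6.09 and from 3.55 to 6.13, while both calls held in all 33 alternatives. In LPS+cordycepin it was at 10.50, a difference of -0.97 from LPS+DMSO (SE 0.31, adjusted p = 0.0353) that was lost without any one of 6 arrays, replicates 1, 2 and 3 of both conditions (-1.11 to -0.84, adjusted p up to 0.0988). In all, this call was lost in 13 of 33 alternatives. Among these were quantile normalization (adjusted p = 0.0619), the spiked-in controls (0.105) and no filter on dim probes (0.121). Within slide 2 the difference was -0.50 (adjusted p = 0.352).

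Btg2, an antiproliferative protein that binds the CAF1-type nucleases, rose by 3.66 with LPS (SE 0.15, adjusted p = 1.61e-10) and by 3.09 in the presence of cordycepin (SE 0.15, adjusted p = 1.61e-09). It fell by 0.86 in LPS+cordycepin against LPS+DMSO (SE 0.15, adjusted p = 0.000375). This fall did not hold with the spiked-in controls (-0.99, SE 0.39, adjusted p = 0.161). The 2 probes of its relative Btg1 went opposite ways. A_55_P2181191 rose by 1.80 with cordycepin alone (SE 0.15, adjusted p = 5.70e-07) and by 1.98 under LPS (SE 0.15, adjusted p = 1.43e-07). A_55_P2098598 was lower in 4 of 4 replicates with cordycepin alone (13.13 ± 0.25 against 14.13 ± 0.24 in DMSO, SD, n = 4 each), without passing (SE 1.24, adjusted p = 0.671). Under LPS its value was -2.69 (SE 1.24, adjusted p = 0.168), with an SD of 3.90 in LPS+cordycepin.

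The probe labelled Btg3 was not above background on any array without cordycepin and was at least 12.6-fold higher in cordycepin than in DMSO and at least 12.4-fold higher in LPS+cordycepin than in LPS+DMSO. It lies at chr17:50839065-50839124 in the array files, whereas the reference annotation has Btg3 on chromosome 16, so that its signal cannot be assigned to Btg3. Of the Tnrc6 genes, whose proteins link microRNA complexes to CCR4-NOT, Tnrc6c fell by 0.87 with cordycepin (SE 0.20, adjusted p = 0.00623). This call did not hold with the spiked-in controls (-0.81, SE 0.39, adjusted p = 0.465) or within slide 1 (adjusted p = 0.137). Tnrc6b fell by 0.64 (SE 0.19, adjusted p = 0.0295), a call lost without any one of 5 arrays (DMSO replicates 1, 3 and 4 and cordycepin replicates 1 and 2, -0.74 to -0.51, adjusted p up to 0.106). In all, the Tnrc6b call was lost in 12 of 34 alternatives. Among these were the spiked-in controls (-0.58, SE 0.40) and slides 1 and 2 alone (adjusted p = 0.0543 and 0.243). Tnrc6a fell by 0.47 with LPS (SE 0.12, adjusted p = 0.0160), a call lost without DMSO replicate 4 or LPS+DMSO replicate 1 (-0.42 at the smallest, adjusted p up to 0.0557). In all, the Tnrc6a call was lost in 11 of 34 alternatives. Among these were the 75th percentile of all probes (adjusted p = 0.0802), the authors' values (0.0839) and the spiked-in controls (0.962). It was also lost within slides 1 and 2 (adjusted p = 0.273 and 0.152).

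The last list holds genes of decapping and 5′ decay, the step after deadenylation. Of 25 tested probes, 1 rose with LPS, 1 fell with cordycepin, 1 fell in LPS+cordycepin against LPS+DMSO, 1 rose in LPS+cordycepin against cordycepin and none passed in the interaction, beside the same shares of all probes as for the other lists. Its medians in the first 3 comparisons were 0.12, 0.16 and 0.02. The enhancer of decapping Edc3 fell by 0.73 with cordycepin alone (SE 0.10, adjusted p = 9.27e-05) and by 0.86 under LPS (SE 0.10, adjusted p = 1.27e-05). Both Edc3 calls were lost with the spiked-in controls (-0.66 and -0.99, SE 0.39, adjusted p = 0.767 and 0.152). The decapping cofactor Dcp1a rose by 0.41 with LPS (SE 0.12, adjusted p = 0.0342) and by 0.52 with LPS in the presence of cordycepin (SE 0.12, adjusted p = 0.0142). The first of these calls was lost without any one of 5 arrays, DMSO replicates 2 and 4 and LPS+DMSO replicates 1, 2 and 4 (0.32 to 0.46, adjusted p up to 0.108), and the second without cordycepin replicate 4 (adjusted p = 0.0513). In all, the Dcp1a calls were lost in 14 and 7 of 34 alternatives. Both were lost with the spiked-in controls (0.31 and 0.22, SE 0.39, adjusted p = 0.9999 and 0.735). Within slides 1 and 2, adjusted p was 0.425 and 0.194 for the first and 0.287 and 0.223 for the second.

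**Figure D4:**
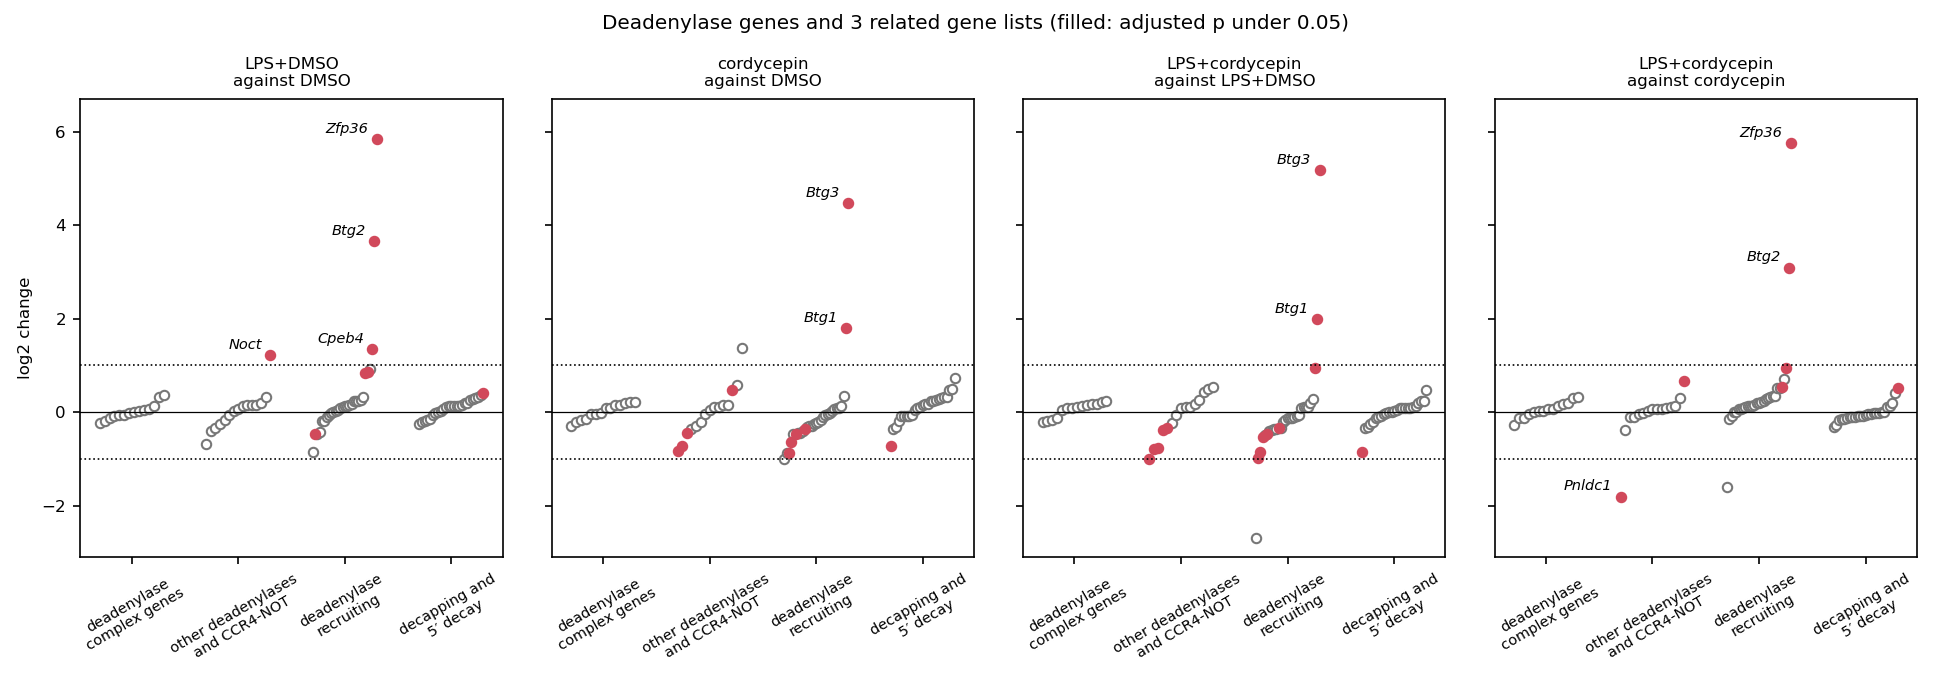
Log2 change (vertical axis) of each tested probe of the deadenylase complex genes (14) and of the lists of other deadenylases and CCR4-NOT (15), deadenylase recruiting (29) and decapping and 5′ decay genes (25) in the 4 comparisons, sorted within a list. Filled points passed an adjusted p of 0.05, dotted lines mark a 2-fold change, and genes past both are named. All points of the deadenylase complex genes are open and lie within the dotted lines, and the point named Btg3 is a probe that the reference annotation does not place in that gene.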

How the data were processed

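RAW 264.7 RNA of 16 cultures was labelled with Cy3 and measured on Agilent 1-colour arrays. The deposited scanner files hold, per spot, an intensity that the authors obtained with Feature Extraction 10.10.1.1 (per the labels), after subtraction of background and without normalization between arrays. The deposited value table holds log2 values of 25775 spots (3.73 to 18.73, column medians 9.55 to 9.58) that the authors had normalized by a method not given in the sources used here. It covered the 14 deadenylase probes tested, correlated with the log2 scanner intensity by 0.995 to 0.998 on each array, and served as an alternative. The processing notes also name limma, without its role. The labels name a Nucleospin kit for RNA, where the methods of the study name TRIzol.

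The processed intensity was log2-transformed, spots marked as outliers (108 to 237 per array) were left out, and spots of a probe were averaged. From each array its own 75th percentile was subtracted, taken over 18057 probes that exceeded background on every array. The 21591 probes that did so on all 4 arrays of some condition were fitted with limma 3.58.1 in R 4.3.3, as 4 condition means over 16 arrays, and p was adjusted over all of them by the Benjamini-Hochberg method. A probe passed at an adjusted p under 0.05, and moderated estimates give the SE and the 95% interval. For a group with no array above background, a fold limit was set against the dimmest signal above background of each array. The procedure was tested on simulated data. Levels were not compared between probes. Array numbers, 4 per condition, limit the precision.

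The members, the gene lists and the comparisons were chosen with earlier results of these data known. All member probes were named. Of each list, the 2 largest rises and the 2 largest falls past the test with the same sign in all 4 replicates were named per comparison, as were the 5 probes most like the member with the largest range of means, and Tnf. Probes outside the members were named through RefSeq by accession, symbol or synonym. Over the whole array, members included, these were 27656, 3401 and 321 probes, and 24303 kept the files' name. Coordinates were copied from the array files (mm9). Python 3.11.15, numpy 2.4.6, pandas 2.3.3 and matplotlib 3.10.9 handled sequences and plots.

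Per the series' design, replicates of a number were collected on a day of their own, as wells of 1 plate, so the number pairs the samples. Between arrays sharing a number, the deviations from the condition means had an average correlation of 0.19, ranging from -0.07 to 0.42, and 20 of 24 pairs exceeded 0.1. The average was 0.17 for different numbers on 1 slide and -0.18 across slides. Slide 1 held replicates 1 and 2 and slide 2 replicates 3 and 4 of all conditions. Alternatives were other scalings (75th percentile of all probes, median, quantile, 6 spiked-in controls), normexp background with an offset of 50, the authors' values, other filters on dim probes, 1 value per gene, blocks for replicate and slide, each slide alone, an intensity trend, only the groups compared, other thresholds, leaving out each replicate or array, and the univariate test named in the study's methods. The methods give that test for the study in general and name none for the arrays. Alternatives for the 3 lists were added after their values were seen. Protein sequences and the mm9 genome were not used here. A marker gene of other cells is not reported here.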

Additional observations from a re-analysis of the deposited data

Results flagged for a closer look

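Within each group of 4 arrays, the gap between the most extreme array and its nearest neighbour was divided by the range of the group, and values above 0.829 were noted. This was so for 8 of 136 groups of the named probes, 2 of them among the 60 groups of deadenylase probes, and chance alone notes about 1 group in 20. In Cnot2 A_52_P569038, cordycepin replicate 3 was at 10.43 and the nearest array at 10.96 (gap share 0.979). In Cnot6l A_55_P2121945, LPS+cordycepin replicate 2 was at 11.18 and the nearest at 11.95 (0.848). Outside the members, Tnrc6a was low in cordycepin replicate 3 (9.79 against 10.30, 0.936), Edc3 was low in DMSO replicate 1 (8.61 against 8.76, 0.890), and Tnrc6c was high in DMSO replicate 2 (9.51 against 8.46, 0.830). Toe1 A_51_P308814 was low in DMSO replicate 2 (9.25 against 9.75, 0.925) and high in LPS+DMSO replicate 4 (9.94 against 9.59, 0.905). Ppp1r11 was high in LPS+DMSO replicate 4 (14.20 against 13.89, 0.931).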

How the results depend on the processing

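The count of deadenylase probes past the test, 0 in each comparison, stayed 0 under all scalings, filters, blocks and single-slide fits tried. Exceptions were the methods' univariate test at an unadjusted 0.05 and the LPS comparison without replicate 2. By that test 3 of 14 probes passed in LPS+cordycepin against LPS+DMSO, beside 6050 of all 21591. In LPS+cordycepin against cordycepin 1 of 14 passed, beside 4150 of all 21591. The LPS comparison without replicate 2 gave 1 of 14 (range 0 to 1 over the arrays left out), beside 2778 of all 21591. No call of the list genes named by the rule reversed in the alternatives run on them. With the replicate number as a block the count of deadenylase probes was 0 in all 5 comparisons, and the pairing ended 1 named call, that of Toe1 A_52_P469458. Among all probes 3775 passed for LPS with this block, in place of 3121. In the lists of other deadenylases, recruiting and decapping genes, 10, 13 and 3 probes passed with it in at least 1 comparison, in place of 7, 12 and 2. The share of all probes that did so was not counted. With the spiked-in controls the median of all probes was -0.14 for LPS and 0.11 for cordycepin, -0.09 for LPS+cordycepin against LPS+DMSO and -0.35 against cordycepin, and 655 of all probes passed for LPS in place of 3121.

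In the lists, 7 of 15 tested probes of the other deadenylases, 12 of 29 of the recruiting and 2 of 25 of the decapping genes passed in at least 1 comparison. The share of all probes that passed in at least 1 comparison was not counted, so these counts have no background beside them. These counts were 1, 5 and 0 with the spiked-in controls, and 2, 5 and 0 at 2-fold or more. For the other deadenylases the count was 2 with no filter on dim probes, 1 within slide 1 and 2 at an adjusted p under 0.01, and without 1 replicate number or array it was 3 to 9. For the decapping genes it was 1 with no filter, within either slide, at an adjusted p under 0.01 and by the methods' test after Benjamini-Hochberg adjustment, 6 by that test at an unadjusted 0.05, and 1 to 3 with a replicate number or array left out. The recruiting genes gave 11 to 13 with these left out. All counts of the recruiting genes given here include the probe labelled Btg3, whose signal cannot be assigned to that gene. The causes were not tested. With 4 arrays per condition, the size of change that could be detected differed between members with their spread.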
